A study of Homo sapiens with 12 samples.

Results

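The aminoacyl-tRNA synthetases were described in 12 RNA-seq samples of neural progenitors derived from human embryonic stem cells. They were chosen by name, as 36 of the 25718 gene symbols in the files. Of these, 20 belong to the cytosolic enzymes (AARS, CARS, DARS, EPRS, GARS, HARS, IARS, KARS, LARS, MARS, NARS, QARS, RARS, SARS, TARS, VARS, WARS, YARS, and the subunits FARSA and FARSB) and 16 have a name ending in 2 and were taken as the mitochondrial enzymes (AARS2, CARS2, EARS2, FARS2, HARS2, IARS2, LARS2, MARS2, NARS2, PARS2, RARS2, SARS2, TARS2, VARS2, WARS2 and YARS2). A synthetase joins one amino acid to its tRNA, the step that supplies charged tRNA to the ribosome. Cytosolic and mitochondrial translation mostly use separate enzymes, all encoded in the nucleus, although GARS and KARS each serve both compartments. Several cytosolic enzymes, among them EPRS, LARS, IARS, MARS, QARS, RARS, KARS and DARS, are held together in the multisynthetase complex, and many cytosolic synthetase genes are known targets of ATF4, the transcription factor of the amino acid response.

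The cells were H9, an established human embryonic stem cell line, transduced at a multiplicity of infection of 50 with a lentiviral vector that carries miR-10a or miR-10b together with GFP under doxycycline control. All cultures were patterned towards ventral midbrain with CT0.8 and Shh at 200 ng/ml and harvested on day 14. In the miR-10a doxycycline and miR-10b doxycycline groups doxycycline was added from day 11, and the miR-10a control and miR-10b control groups held the same transduced cells without it, with 3 samples in each of the 4 groups. The design asks which transcripts change when miR-10a or miR-10b is overexpressed. No group received doxycycline without a miR-10 vector, so the effects of miR-10 and of doxycycline, a tetracycline of the kind known to inhibit mitochondrial ribosomes, cannot be told apart. Each vector was carried by separately transduced cells, so a difference between the vectors cannot be told apart from a difference between those cultures. The labels do not say that replicates came from separate transductions or differentiations, and p-values then measure only the spread between these samples.

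Total counts per sample lay between 10545487 and 14165426, and levels are in CPM, the usual unit that sets each count against its library's total. MIR10A rose with doxycycline in the miR-10a cells (log2 fold change 9.49) and MIR10B in the miR-10b cells (9.53), as the labels say. The progenitor markers SOX2 (1018 to 1209 CPM) and NES (4341 to 5188 CPM) and the floor plate genes FOXA1, SHH and EN1 were present in every sample, whereas LMX1B, with 3 transcripts in the files, had no counts and OTX2, with 7, had at most 10. Replicate 2 of the miR-10b doxycycline group stood apart: its counts differed from those of its 2 fellow replicates with a chi-square per degree of freedom of 3.21 and 4.16, against 1.23 to 1.95 in all other replicate pairs.

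The mature miR-10a-5p is shown because the bases in capitals, its seed (bases 2 to 8), are those whose complement was looked for in the synthetase transcripts. The sequence is from RefSeq (GRCh38.p14, chr17:48579904-48579926, minus strand).
hsa-miR-10a-5p: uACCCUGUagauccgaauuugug

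Matches to this seed were looked for on the transcribed strand in the longest annotated 3′ untranslated region of each gene (GENCODE 44 on GRCh37). They were an 8mer (ACAGGGTA), a 7mer-m8 (ACAGGGT), a 7mer-A1 (CAGGGTA) or a 6mer within them, and each gene was counted once under its best match. None of the 28 synthetases with enough counts to be tested had an 8mer, which 2.57% of 9790 tested genes with such a region held. A 7mer-m8 was found in 2 members, LARS and RARS2 (13.66% of genes), a 7mer-A1 in 2 (4.91%) and a 6mer in 3 (19.54%), and 21 members had none (59.32%). The 2 7mer-A1 matches are given with their surroundings, the match in capitals as examples. They lie at chr16:23534540-23534568 (minus strand) for EARS2 and chr3:45591898-45591926 (plus strand) for LARS2, both on GRCh37.
EARS2: gaggatggtggCAGGGTAcatgaacccct
LARS2: gctaagaaaagCAGGGTAcatccagtcaa
The match in EARS2 is inside the exons of the MANE Select transcript and that in LARS2 is outside them. The 7mer-m8 of LARS, the synthetase with the smallest p with doxycycline, is outside the MANE Select exons and that of RARS2 is inside them. RARS2, EARS2 and LARS2 were not called with doxycycline. A match describes letters and not a site of action.

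The promoters of the synthetases were searched for TGATGNAA, the core of the amino acid response element to which ATF4 and its partners bind, on both strands of the RefSeq window from 250 bases before to 50 after the start of each gene (GRCh38.p14). It was found in 6 of the 16 cytosolic and 1 of the 14 mitochondrial promoters listed. The share was 3.67% of all 27305 promoters and 1.58% of the 8679 promoters of tested genes. CACGTG, the E-box read by MYC and other factors, was found in 1 cytosolic promoter (IARS) and 3 mitochondrial promoters (CARS2, EARS2 and MARS2), against 7.43% of all promoters and 10.13% of those of tested genes. The elements of the 7 genes are shown with 16 bases on either side, on the strand of the gene, with the element in capitals, because they are the sequence feature most unequal between the classes. They lie at chr16:70289670-70289709 (AARS), chr11:3057402-3057441 (CARS), chr9:92293687-92293726 (IARS), chr12:57488048-57488087 (MARS), chr18:57621799-57621838 (NARS), chr5:33440951-33440990 (TARS) and chr12:32756071-32756110 (YARS2), where MARS and TARS are on the plus strand and the others on the minus strand.
AARS: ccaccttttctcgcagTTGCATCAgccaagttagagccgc
CARS: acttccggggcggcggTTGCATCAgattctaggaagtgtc
IARS: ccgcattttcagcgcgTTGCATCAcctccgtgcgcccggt
MARS: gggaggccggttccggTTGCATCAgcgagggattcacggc
NARS: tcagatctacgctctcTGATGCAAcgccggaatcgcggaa
TARS: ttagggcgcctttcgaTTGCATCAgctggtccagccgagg
YARS2: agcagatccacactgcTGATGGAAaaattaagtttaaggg
The 6 cytosolic matches share the letters TTGCATCA or their reverse complement, and all but that of AARS, 187 bases upstream, lie within 14 bases of the start. DARS, LARS, VARS, YARS, AARS2 and VARS2 had no entry in the promoter table.

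Of the 36 synthetases, 28 had a mean above 10 counts per sample and were tested, 15 cytosolic and 13 mitochondrial. CARS, HARS, QARS, TARS and WARS and the mitochondrial HARS2, TARS2 and WARS2 were not tested, and none of them exceeded 6 counts in any sample. HARS, WARS and TARS2 were at 0 in every sample, where 3 counts would be 0.212 to 0.284 CPM. All 8 have several transcripts in the files, and all 20 members with a single transcript were tested. Reads shared by several transcripts appear to have been left out of the counting, so that these low counts do not mean low expression. The gap at the filter was wide: the lowest tested member was EARS2 (mean 13.5 counts) and the highest one not tested was QARS (3.42).

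On a scale of CPM per kb of transcript, SARS, the seryl-tRNA synthetase, had the highest cytosolic level. It lay at 165.2 to 166.3 CPM per kb in the miR-10a control samples, 158.8 to 168.7 with doxycycline, 148.1 to 152.7 in the miR-10b control samples and 148.8 to 157.6 with doxycycline. Both miR-10b groups were thus lower than the miR-10a controls. MARS (135), GARS (131), NARS (125) and LARS (108) followed as means over the 12 samples, and then YARS (98.4), EPRS (93.2), RARS (91.2), AARS (83.9), FARSB (81.2), VARS (73.4) and FARSA (57.2). The levels of the 2 phenylalanyl-tRNA synthetase subunits, FARSA and FARSB, thus stood apart by more than their SDs over the samples (1.39 and 3.68 CPM per kb). KARS (1.79), IARS (1.24) and DARS (0.393) were far lower, all with several transcripts in the files. DARS lay at 0.380 to 0.484 CPM per kb in the miR-10a control, 0.330 to 0.393 in the miR-10a doxycycline, 0.352 to 0.469 in the miR-10b control and 0.342 to 0.453 in the miR-10b doxycycline samples, with all groups overlapping.

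Among the mitochondrial enzymes the arginyl-tRNA synthetase RARS2 was highest, with 83.7, 85.7 and 92.6 CPM per kb in the miR-10a control samples and 79.4 to 88.5 in the other groups, without separation of the groups. IARS2 (70.9) and CARS2 (59.4) were in the range of the cytosolic enzymes. LARS2 (26.1), AARS2 (25.7), YARS2 (21.6), FARS2 (12.7), MARS2 (7.44) and PARS2 (7.14), each with 1 transcript in the files, were below all the single-transcript cytosolic members. LARS2 and AARS2 differed by less than their SDs of 1.01 and 1.19 CPM per kb, and so did MARS2 and PARS2 (0.620 and 0.731). NARS2 (3.91), SARS2 (0.791), VARS2 (0.711) and EARS2 (0.276) have several transcripts. EARS2, the lowest, lay between 0.168 and 0.381 CPM per kb with all groups overlapping. VARS and VARS2 are listed on several rows of the files and their deposited length was divided by the number of rows, so that their levels per kb are less certain. The plot of level per kb shows the order of all tested members.

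**Figure D1:**
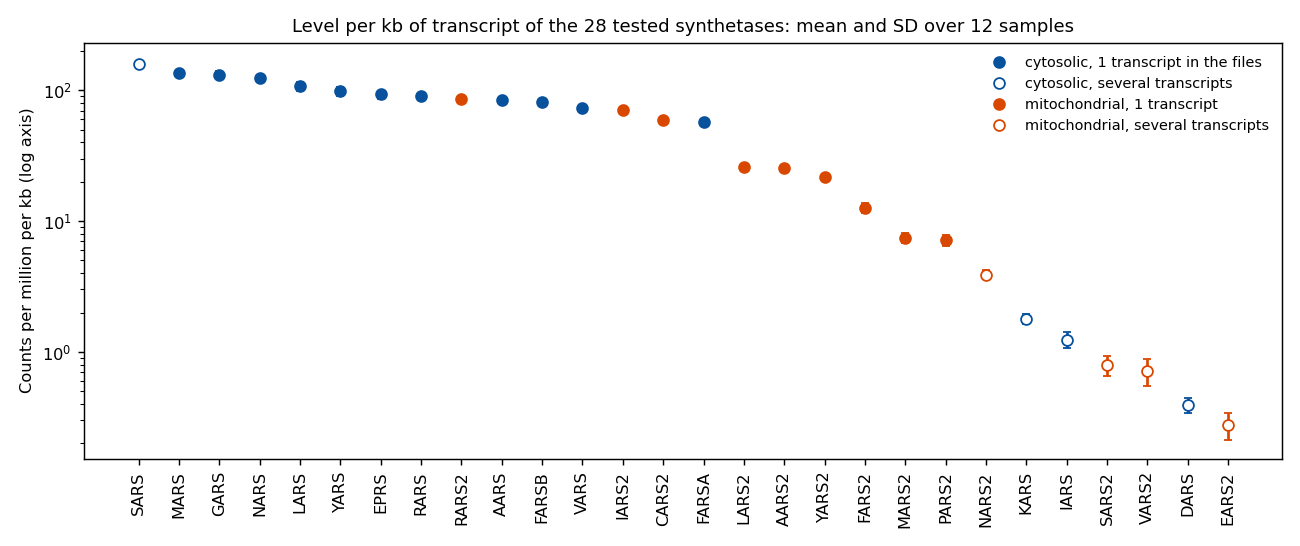
Level of each of the 28 tested synthetases in CPM per kb of transcript (log axis), as mean and SD over the 12 samples, in blue for cytosolic and orange for mitochondrial enzymes and filled where the files hold 1 transcript. The single-transcript cytosolic enzymes lie between 57.2 and 135, the single-transcript mitochondrial enzymes between 7.14 and 86.0, and all open circles but SARS lie below 4.

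With doxycycline, LARS, the leucyl-tRNA synthetase (chr5:145490129-145562259, minus strand, GRCh37), fell. It measured 583.5, 561.0 and 583.3 CPM in the miR-10a control samples and 529.6, 537.6 and 538.1 CPM with doxycycline. In the miR-10b cells it measured 509.3, 517.2 and 530.8 CPM without and 461.5, 445.9 and 469.95 CPM with doxycycline. Within each vector the samples with and without doxycycline did not overlap. Averaged over both vectors the log2 fold change was -0.14 ± 0.022 (SE, n = 6 against 6, adjusted p = 1.35e-05), which is a fall of 9.34%. LARS passed the test with miR-10b (-0.18 ± 0.031, adjusted p = 7.97e-05) and missed it with miR-10a (-0.11 ± 0.031, adjusted p = 0.0868). The 2 effects differed by -0.07 (95% interval -0.16 to 0.02, adjusted p = 0.52), so no difference between the vectors was shown. With DESeq2 and with the miR-10a samples fitted alone, LARS passed the test in the miR-10a cells too (adjusted p = 0.0426 and 0.0196). It also did so when replicate 2 of the miR-10b doxycycline group, which adds to the shared estimate of spread, was left out (0.0173).

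GARS, the glycyl-tRNA synthetase, fell with miR-10b. It measured 358.6, 350.8 and 355.3 CPM in the miR-10b control and 322.8, 326.5 and 325.9 CPM in the miR-10b doxycycline samples, which did not overlap (log2 fold change -0.13 ± 0.032, adjusted p = 0.00466). In the miR-10a cells it measured 394.3, 376.2 and 378.5 CPM without and 387.0, 384.1 and 375.3 CPM with doxycycline, which overlapped (-0.00 ± 0.031, adjusted p = 0.99). The difference between the 2 effects was -0.12 (95% interval -0.21 to -0.03), which did not pass the test over all genes (adjusted p = 0.169). The average effect of -0.06 ± 0.022 lay just past the threshold (adjusted p = 0.0477).

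EPRS, the bifunctional glutamyl-prolyl-tRNA synthetase, measured 510.4, 499.1 and 516.4 CPM in the miR-10a control and 488.5, 485.6 and 481.6 CPM in the miR-10a doxycycline samples. In the miR-10b cells it measured 434.7, 455.6 and 449.9 CPM without and 428.6, 421.7 and 434.4 CPM with doxycycline. No doxycycline sample overlapped the controls of its vector, and the average effect passed the test (-0.06 ± 0.022, adjusted p = 0.042), although neither vector did alone. With 1 library left out, the average effect stayed at -0.0741 to -0.0573 for EPRS and at -0.0713 to -0.0542 for GARS. The calls of EPRS and GARS for the average effect lay near the threshold, and leaving out any 1 of many libraries removed them. The first was lost when replicate 1, 2 or 3 of the miR-10a doxycycline, 1 or 3 of the miR-10a control, 1 of the miR-10b doxycycline or 2 or 3 of the miR-10b control group was left out (adjusted p 0.0692 to 0.119), and the second when any library other than replicate 2 of the miR-10a control or of the miR-10b doxycycline group was left out (0.0533 to 0.159).

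AARS, the alanyl-tRNA synthetase, rose with miR-10b, from 262.6, 268.2 and 265.8 CPM to 283.7, 298.2 and 278.0 CPM without overlap (log2 fold change 0.11 ± 0.034, adjusted p = 0.0238). In the miR-10a cells it measured 280.0, 286.5 and 284.4 CPM without and 286.6, 293.2 and 277.9 CPM with doxycycline, which overlapped (0.01 ± 0.034). The call was not firm. It was lost without replicate 2 of the miR-10b doxycycline group (adjusted p = 0.11) or replicate 1 or 3 of its controls (0.0766 and 0.0617). It was also lost with TMM factors, DESeq2 and the miR-10b samples fitted alone (0.0594, 0.107 and 0.0675).

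**Figure D2:**
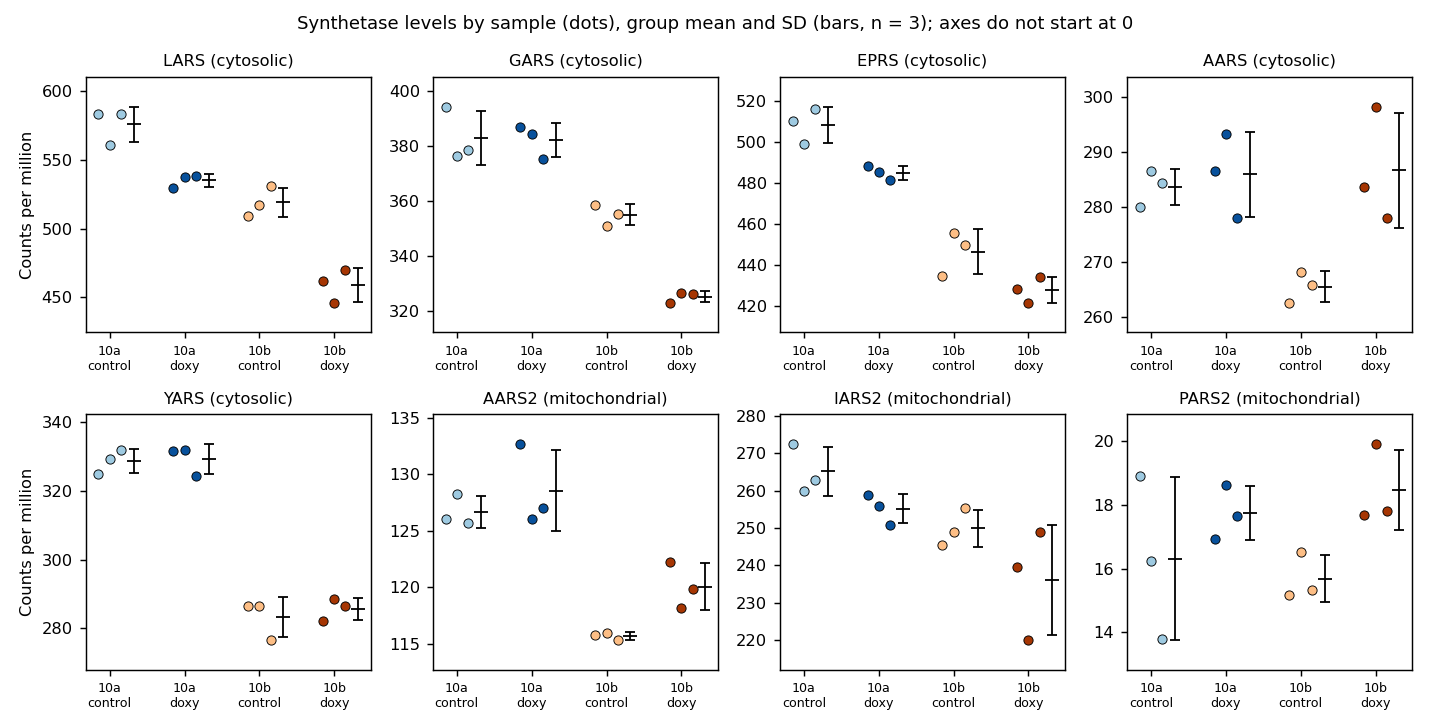
CPM of 8 synthetases in each sample (dots), with the mean and SD of each group of 3 beside them, on axes that do not start at 0. LARS and EPRS are lower with doxycycline than in the controls of each vector, GARS and AARS differ between the miR-10b groups, and YARS and AARS2 are lower in both miR-10b groups than in both miR-10a groups.

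Of the 15 cytosolic members tested, 3 fell and none rose in the average effect, which is 20.0%, against 13.9% of all 11451 genes called in either direction and 6.22% called lower. With miR-10b, 1 rose and 2 fell (20.0%), against 15.3% of all genes in either direction and 7.15% lower. With miR-10a none was called by edgeR, where 1.21% of all genes were, and 2 had an unadjusted p under 0.05. DESeq2 called 1 there, LARS (-0.12). The median log2 fold change of the cytosolic members was 0.01 for the average effect, 0.01 with miR-10a and -0.00 with miR-10b, and that of all genes was 0.01, 0.01 and 0.02. In order of the average log2 fold change, the cytosolic members other than those above were DARS (-0.10), NARS (-0.04), RARS (-0.03), FARSB (-0.01), YARS (0.01), SARS (0.01), MARS (0.01), KARS (0.01), VARS (0.02), FARSA (0.03), AARS (0.06) and IARS (0.07), and none of these passed the test. NARS and RARS had values of -0.08 and -0.09 with miR-10b (adjusted p = 0.0964 and 0.0812). The complex members LARS and EPRS fell, the latter near the threshold. IARS, MARS, RARS, KARS and DARS did not pass the test and QARS was not measured. Changes as small as those of LARS and EPRS were hardly detectable in IARS, KARS and DARS, with means of 71.9, 48.3 and 15.3 counts.

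Among the 13 mitochondrial members tested, edgeR called none in the average effect or with either vector, and neither did DESeq2. The counts at an unadjusted p under 0.05 were 2 for the average effect, 0 with miR-10a and 2 with miR-10b. In the order of the average log2 fold change the members were EARS2 (-0.21), IARS2 (-0.07), RARS2 (-0.04), FARS2 (-0.03), LARS2 (-0.03), YARS2 (-0.02), SARS2 (-0.02), CARS2 (-0.01), NARS2 (0.01), MARS2 (0.02), AARS2 (0.04), VARS2 (0.16) and PARS2 (0.18), with a median of -0.02. IARS2, the isoleucyl-tRNA synthetase of mitochondria, and PARS2, the prolyl enzyme, were nearest to the threshold (adjusted p = 0.0876 and 0.0731). IARS2 measured 272.5, 260.0 and 262.9 CPM in the miR-10a control and 258.8, 255.9 and 250.9 CPM in the miR-10a doxycycline samples, and 245.5, 248.8 and 255.3 CPM against 239.5, 219.9 and 248.9 CPM in the miR-10b cells. The miR-10a groups did not overlap and the miR-10b groups did. PARS2 measured 15.2, 16.5 and 15.3 CPM without and 17.7, 19.9 and 17.8 CPM with doxycycline in the miR-10b cells, without overlap, and overlapped in the miR-10a cells. IARS2 passed the test without replicate 3 of the miR-10b doxycycline group (adjusted p = 0.0199) and PARS2 without replicate 1 of the miR-10a control group (0.0194).

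The mitochondrial estimates were less precise. Their median SE was 0.078 with miR-10a, against 0.034 for the cytosolic members, and 6 mitochondrial but 12 cytosolic members had a mean above 500 counts. Within the 6, none was called and the median of the average effect was -0.02 with a median SE of 0.029. For the average effect the SE of the mitochondrial members lay between 0.027 and 0.224, above the 0.022 of GARS and EPRS, so that changes of 0.06 like theirs were hardly detectable there. The difference between the 2 classes was not tested.

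**Figure D3:**
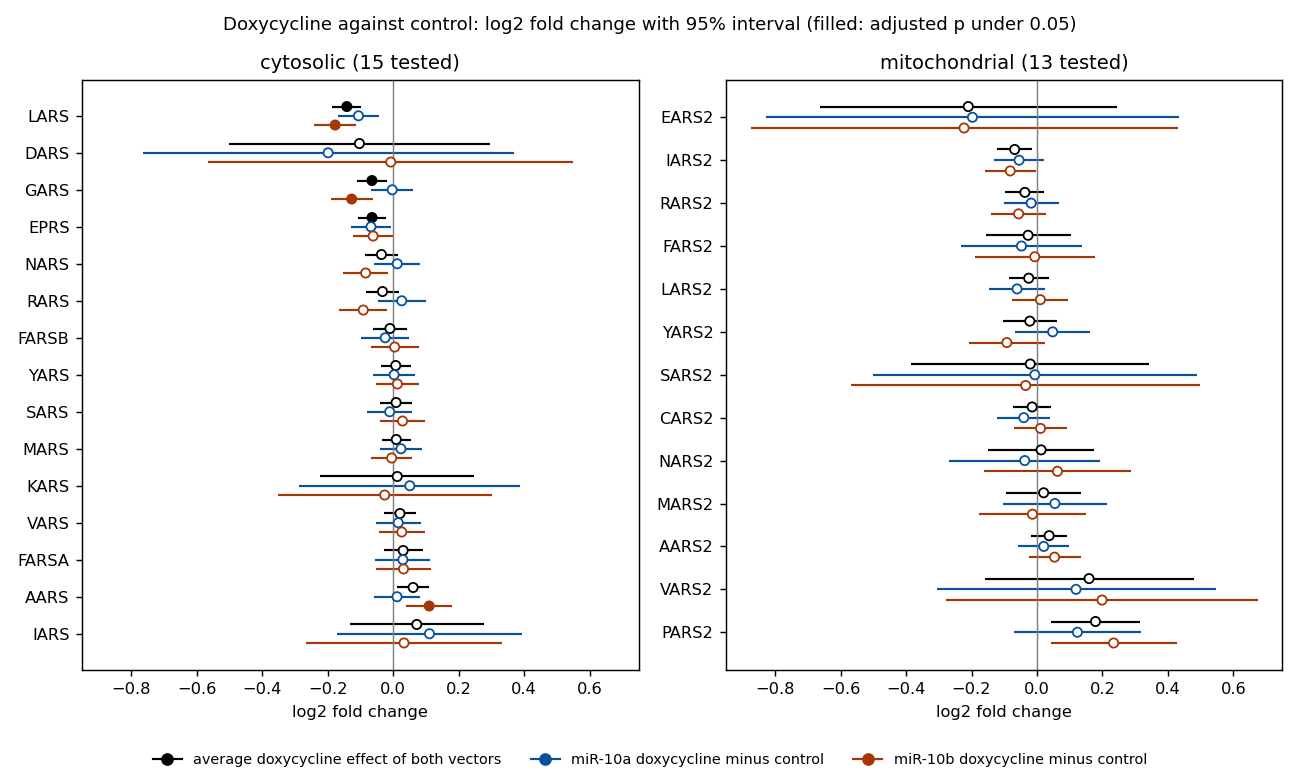
Log2 fold change of doxycycline against control with its 95% interval for the 15 cytosolic and 13 mitochondrial synthetases tested, as the average of both vectors (black), with miR-10a (blue) and with miR-10b (brown), filled where the adjusted p is under 0.05. LARS, GARS and EPRS are filled for the average, LARS, GARS and AARS with miR-10b, and no mitochondrial member is filled.

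For the difference between the miR-10b and the miR-10a effect, edgeR called 0 of 15 cytosolic and 0 of 13 mitochondrial members, where 1.96% of all genes were called, and DESeq2 gave 0 and 0 as well. At an unadjusted p under 0.05 there were 3 cytosolic members (GARS, RARS and AARS) and 0 mitochondrial members. The median difference was 0.00 for the cytosolic and 0.03 for the mitochondrial members, and 0.01 for all genes. The 95% intervals of the single-transcript cytosolic members reached from -0.22 (RARS) to 0.20 (AARS).

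More members were called between the uninduced cells of the 2 vectors. Of the 15 cytosolic members, 7 were lower in the miR-10b control than in the miR-10a control samples and none was higher (46.7%), against 14.1% of all genes called in either direction and 6.72% called lower. These 7 were YARS (-0.21 ± 0.032, adjusted p = 3.2e-06), EPRS (-0.19 ± 0.031), LARS (-0.15 ± 0.031), SARS (-0.14 ± 0.033), VARS (-0.13 ± 0.034), FARSB (-0.13 ± 0.035) and GARS (-0.11 ± 0.031, adjusted p = 0.0132). The median of the cytosolic members was -0.11 and that of all genes -0.01. YARS, the tyrosyl-tRNA synthetase (chr1:33240838-33283632, minus strand, GRCh37), measured 324.9, 329.1 and 331.9 CPM in the miR-10a control and 286.5, 286.6 and 276.5 CPM in the miR-10b control samples. With doxycycline it measured 331.6, 331.9 and 324.3 CPM in the miR-10a and 282.2, 288.5 and 286.6 CPM in the miR-10b cells. Both miR-10b groups lay below both miR-10a groups, and within each vector the treatments overlapped.

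SARS measured 322.5, 320.2 and 321.9 CPM in the miR-10a control and 287.1, 291.3 and 296.2 CPM in the miR-10b control samples. VARS, the valyl enzyme, measured 285.4 to 293.2 CPM in the first and 255.8 to 272.6 CPM in the second, and FARSB 186.9 to 192.1 and 172.4 to 175.0 CPM. None of these groups overlapped. Every miR-10b control sample lay below every miR-10a control sample for 10 of the 15 cytosolic members (AARS, EPRS, FARSA, FARSB, GARS, LARS, MARS, SARS, VARS and YARS), as it did for 15.9% of all genes. The other 5 overlapped, among them NARS (-0.01) and RARS (0.01), which are as deeply counted as the rest.

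Of the 13 mitochondrial members 1, AARS2, was lower in the miR-10b control samples (-0.13 ± 0.038, adjusted p = 0.0159). That is 7.7%, near the 6.72% of all genes called lower, and DESeq2 did not make the call. The alanyl-tRNA synthetase of mitochondria measured 126.0, 128.3 and 125.7 CPM in the miR-10a control and 115.8, 115.9 and 115.3 CPM in the miR-10b control samples. All 13 estimates were below 0, with a median of -0.09, from -0.44 (VARS2) to -0.01 (RARS2). For 5 of them (AARS2, CARS2, IARS2, LARS2 and VARS2) the samples did not overlap. Every miR-10b control sample lay below every miR-10a control sample for 15.9% of all genes. Leaving out 1 library could remove 3 of the calls between the uninduced cells. GARS was lost when replicate 1 of the miR-10a control group (adjusted p = 0.118) or replicate 2 of the miR-10b control group (0.0677) was left out, VARS without the latter (0.0528) and AARS2 without replicate 2 of the miR-10a control group (0.0719).

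**Figure D4:**
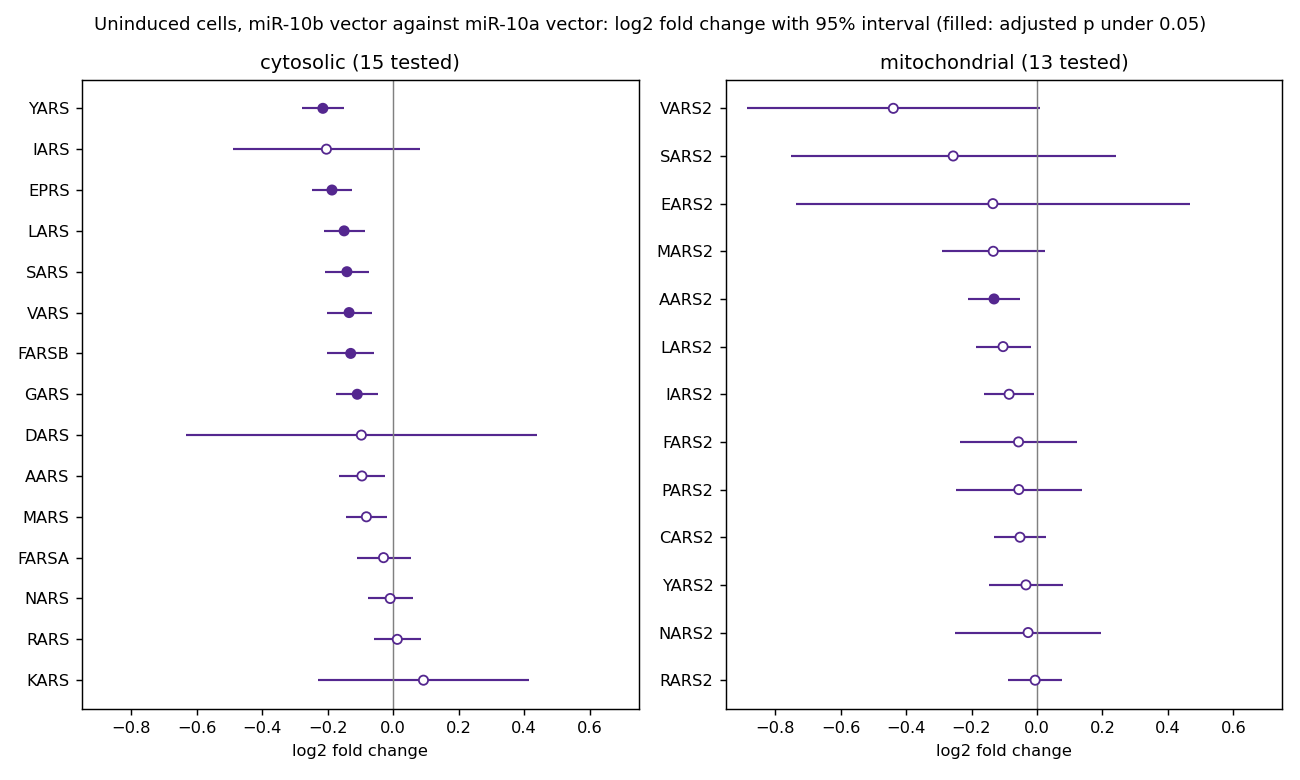
Log2 fold change of the miR-10b control against the miR-10a control samples with its 95% interval for the 28 tested synthetases, filled where the adjusted p is under 0.05. Of the cytosolic members 13 of 15 lie below 0 and 7 are filled, and of the mitochondrial members 13 of 13 lie below 0 and 1 is filled.

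Summed over the 15 tested cytosolic members, the level was 3964 ± 43.8 CPM (SD, n = 3) in the miR-10a control, 3915 ± 36.5 in the miR-10a doxycycline, 3655 ± 25.2 in the miR-10b control and 3550 ± 22.5 CPM in the miR-10b doxycycline group. The 13 mitochondrial members summed to 907 ± 5.77, 892 ± 10.7, 862 ± 7.01 and 848 ± 28.1 CPM. For both classes the miR-10b samples lay below the miR-10a samples, whatever the treatment. The cytosolic sums of the miR-10b groups did not overlap either (3535 to 3576 with and 3635 to 3684 CPM without doxycycline), and the mitochondrial ones did.

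**Figure D5:**
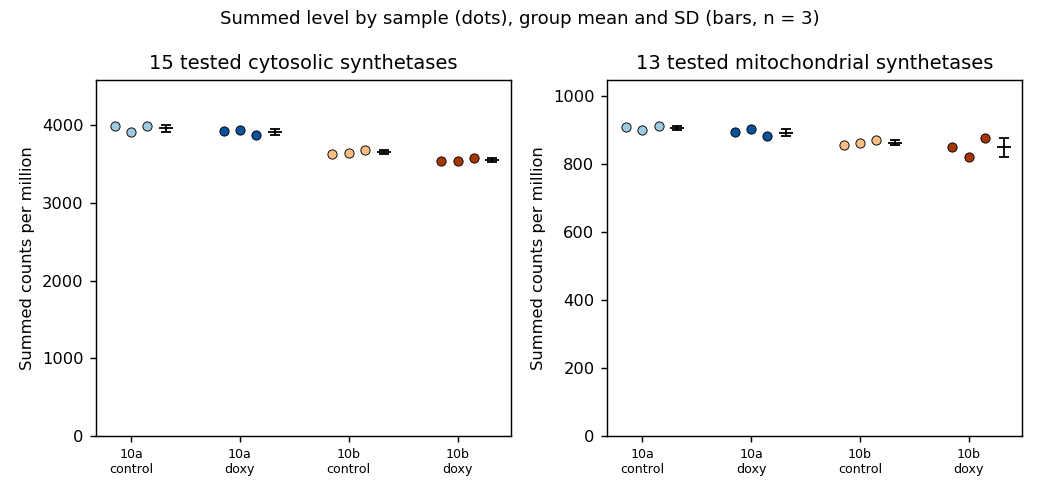
Summed CPM of the 15 cytosolic (left) and 13 mitochondrial (right) synthetases tested in each sample (dots), with the mean and SD of each group of 3, on axes that start at 0. The cytosolic sums lie between 3873 and 3990 CPM in the miR-10a samples and between 3535 and 3684 CPM in the miR-10b samples.

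Some markers of other cells also differed between the vectors. In these bulk samples fewer cells of a type and less RNA per cell cannot be told apart. In the comparison of the miR-10b control with the miR-10a control samples 7.41% of all genes were called higher and 6.72% lower. Of 5 mesenchymal markers 4 were tested, and all 4 were higher there. COL3A1 was higher by 1.95, COL1A1 by 1.16, LUM by 1.07 and TWIST1 by 0.92 on the log2 scale. DCN, with 6 transcripts in the files, was at 0 or 1 count, which does not mean low expression. The sum of the 5 lay at 139 to 143 CPM in the miR-10a control, 141 to 159 in the miR-10a doxycycline, 346 to 365 in the miR-10b control and 287 to 309 CPM in the miR-10b doxycycline samples. The 5 pluripotency markers summed to 1643 to 1721, 1526 to 1571, 1229 to 1258 and 996 to 1009 CPM in the same order. Nearly all came from LIN28A (means of 1539.5, 1394.7, 1135.3 and 898.8 CPM) and DPPA4, both lower in the miR-10b control samples. The paper reports LIN28A as a miR-10 target that fell on overexpression, so with doxycycline this sum need not follow the number of pluripotent cells. Whether that bears on the uninduced cells was not tested. POU5F1, NANOG and ZFP42 had at most 2 counts. POU5F1 and NANOG have several transcripts in the files (5 and 2), so their counts do not mean low expression. Of the 7 neural progenitor markers 3 were higher and 2 lower, SOX1 (-1.23) and SOX3 (-0.76). All 7 summed to 10726 to 10810 CPM in the miR-10a control and 11861 to 12008 CPM in the miR-10b control samples. Most of this sum and of its rise came from NES (means of 4594.7 and 5159.9 CPM) and VIM (4245.6 and 4842.0 CPM). Of the 9 floor plate markers 7 were tested, of which 5 were higher and none lower. All 9 summed to 1076 to 1096 and 1355 to 1379 CPM. The 4 endoderm markers summed to 4.80 to 6.41 and 13.1 to 14.4 CPM in the same pair of groups, and the 4 neural crest markers to at most 2.08 CPM in any sample. Of the 7 neuron markers 4 were tested and none was called. All 7 summed to 121.88 to 125.52 CPM in the miR-10a control and 121.05 to 122.74 CPM in the miR-10b control samples. Of the 5 hindbrain markers 2 were tested, of which 1 was higher and 1 lower in the miR-10b control samples. The part of these differences in those of the synthetases was not tested.

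The other genes of the amino acid response were taken as a list of 42 symbols, of which 23 were tested. In the average effect 6 fell (26.1%, against 6.22% of all genes) and 1 rose, with a median of -0.06 against 0.01 for all genes. The synthetases with the response element and enough counts (AARS, IARS, MARS, NARS and YARS2) had no call in it. AARS rose with miR-10b, a call kept in 13 of 19 alternative fits. The 4 with the smallest p were the arginine and lysine transporter SLC7A1 (-0.33 ± 0.023), the cystine transporter SLC7A11 (-0.32 ± 0.035), the glutamine transporter SLC38A2 (-0.29 ± 0.033) and the secreted glycoprotein STC2 (-0.45 ± 0.066). SLC7A1 measured 324.3, 328.8 and 328.1 CPM without and 298.3, 297.4 and 302.9 CPM with doxycycline in the miR-10a cells. It measured 296.0, 293.0 and 282.4 CPM without and 197.1, 197.9 and 203.6 CPM with doxycycline in the miR-10b cells. SLC7A5 (-0.13) and PHGDH (-0.07) fell too, and PPP1R15A rose (0.10), but the last 2 calls were kept in 4 of the 12 fits that leave out a library (adjusted p up to 0.134 and 0.13), and DESeq2 did not make that of PPP1R15A. With miR-10b 7 of the list fell (30.4%, against 7.15% of all genes) and 1 rose. With miR-10a, where 1.21% of all genes were called, 2 fell (8.7%), SLC7A11 (-0.25) and SLC7A1 (-0.13), and none rose. The call of SLC7A1 with miR-10a was lost without any 1 of the 6 miR-10a samples or replicate 2 of the miR-10b control group (adjusted p up to 0.187). In the average effect the transporters SLC7A1, SLC7A11, SLC38A2 and SLC7A5 fell, and the list holds further transporters. Those without a call include the transporter SLC1A5 as well as SESN2 and ATF4. ASNS, DDIT3, CHAC1 and TRIB3, which define the response, had too few counts, all with several transcripts.

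ATF4 itself measured 10.85 to 12.1 CPM in the miR-10a control, 12.2 to 13.1 in the miR-10a doxycycline, 7.56 to 10.7 in the miR-10b control and 8.98 to 12.8 CPM in the miR-10b doxycycline samples. It has 2 transcripts in the files and a mean of 135 counts. It was not called with doxycycline (average 0.19 ± 0.086, adjusted p = 0.155) and was lower in the miR-10b control than in the miR-10a control samples (-0.37 ± 0.12, adjusted p = 0.0344). That call was lost without replicate 2 or 3 of the miR-10a control or 1 or 2 of the miR-10b control group (adjusted p up to 0.247) and was not made by DESeq2. Between the uninduced cells 7 of the list were lower and 1 higher (30.4% lower, against 6.72% of all genes, median -0.16), among them SLC7A11 (-0.54), SLC1A5 (-0.39), EIF4EBP1 (-0.29), PHGDH (-0.17), SLC7A1 (-0.17) and XPOT, the tRNA exporter (-0.16). The comparisons of treatment and of vector share the control samples.

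Of 14 tested ER chaperones and genes of the unfolded protein response, HSP90B1 fell in the average effect (-0.08 ± 0.021, adjusted p = 0.0104) and none rose, with values of 0.07 for MANF, 0.06 for DNAJB11 and -0.06 for EDEM1. The 1 call is 7.1%, near the 6.22% of all genes called lower. Between the uninduced cells 7 of the 14 were higher with miR-10b (50.0%, against 7.41% of all genes called higher) and none lower, namely HSP90B1 (0.23), PDIA4 (0.21), CALR (0.18), HSPA5 (0.18), DNAJB11 (0.14), MANF (0.13) and ATF6 (0.12). Of these, ATF6 and DNAJB11 were kept in 10 and MANF in 8 of the 12 fits that leave out a library, and the others in all 12. This list and the cytosolic synthetases thus had calls in opposite directions in that comparison. Of 12 genes that sense uncharged tRNA or act on eIF2, none was called by edgeR or DESeq2 in any comparison. At an unadjusted p under 0.05 there was 1 for the average effect and 5 between the uninduced cells. EIF2S1 (-0.08, adjusted p = 0.0677), EIF2S2 (-0.05), EIF2B3 (0.28) and EIF2B1 (0.05) had the smallest p for the average effect.

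In the list of the multisynthetase complex scaffolds and the translation elongation factors, 8 genes were tested. In the average effect 37.5% of them were called, against 13.9% of all genes. EEF1E1, a scaffold of the complex, fell (-0.26 ± 0.061, adjusted p = 0.00288). The elongation factors EEF1A2 (0.26 ± 0.055) and EEF2 (0.07 ± 0.021) rose, the latter not with DESeq2 (adjusted p = 0.0611), while EEF1A1 had a value of 0.04. The scaffold AIMP2 (-0.21) and the factor EEF1D (-0.35) were lower in the miR-10b control than in the miR-10a control samples, calls kept in 8 and 7 of the 12 fits that leave out a library and not made by DESeq2. Of 10 genes for mitochondrial translation factors and charging none was called by edgeR or DESeq2 in any comparison, and 0 for the average effect and 1 with each vector had an unadjusted p under 0.05. GFM1 (0.04), QRSL1 (0.04) and TUFM (0.03) were among those with the smallest p. Of 17 other genes of tRNA charging, editing and maturation, TRNT1, which adds the CCA end of tRNA, fell (-0.13 ± 0.039, adjusted p = 0.0268, kept in 6 of the 12 fits that leave out a library), and DTD1 (0.06), SEPSECS (-0.09) and WDR4 (-0.23) were not called. This 1 call is 5.9%, near the 6.22% of all genes called lower. SEPSECS (-0.20) and XPOT were lower in the miR-10b control samples, the former not with DESeq2 (adjusted p = 0.0917). Those calls are 11.8% of the 17, against 6.72% of all genes. Of 6 growth regulators tested MYC fell (-0.24 ± 0.054, adjusted p = 0.00183), from 21.9 to 23.1 CPM to 18.8 to 19.7 CPM in the miR-10a and from 21.4 to 22.8 CPM to 18.0 to 19.9 CPM in the miR-10b cells, and MYCL (-0.28), MNT (0.04), RPTOR (0.04) and MYCN (-0.09) were not called. MYCL was lower in the miR-10b control than in the miR-10a control samples (-0.47), but not with DESeq2 (adjusted p = 0.0915). With 6 genes tested, MYC and MYCL each made up 16.7%, against 6.22% and 6.72% of all genes called lower in these comparisons.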

How the data were processed

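RNA was sequenced from 12 samples in 4 groups of 3. The authors deposited raw counts per RefSeq transcript (hg19). The submitters' processing notes name STAR, featureCounts and Subread, and the counting settings are not given in the sources used here. Each file held 51799 rows for 48101 transcripts, and 3698 repeated rows were dropped. The transcript with the highest mean count stood for its gene. The quasi-likelihood test of edgeR 4.0.16 (R 4.3.3) was run over 11451 genes, those whose mean exceeded 10 counts, in one fit of the 4 groups with total counts as library sizes. P-values were adjusted over these genes (Benjamini-Hochberg) and called under 0.05. SE and 95% intervals come from this fit. The code was tested on simulated counts. Single values compared by exact permutation of 3 against 3 samples cannot go below p = 0.1. Summaries used Python 3.11.15 with pandas 2.3.3 and scipy 1.17.1. All 36 synthetases are named, with values per sample for those called with doxycycline and the highest and lowest per kb, and of each pathway list the 4 with the smallest p of the average effect. IARS2, PARS2, YARS, SARS, VARS, FARSB and AARS2 and further list genes were given values after these were seen. The members, lists and rules were chosen with earlier results of these data known. Alternatives were TMM factors, DESeq2 1.42.0, other count filters, summed transcripts, a replicate block, each vector fitted alone and leaving out each library. Samples with the same replicate number showed no correlated deviations, which does not exclude a weak pairing. Some sequences and 1 gene of a pathway list are not reported here.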

Additional observations from a re-analysis of the deposited data

Results flagged for a closer look

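The doxycycline effect on SLC7A1 differed between the vectors, by -0.41 on the log2 scale (miR-10b minus miR-10a, adjusted p = 2.87e-07 for the interaction in edgeR), with every doxycycline sample below every control sample in both. That on SLC38A2 differed by -0.32 (adjusted p = 0.00413) and was not called by DESeq2 (0.131). Both were called by edgeR in all 12 fits that leave out a library. The transcripts not used for their gene held counts in 2 synthetases. The second SARS transcript, a non-coding one, had a mean of 311.42 counts per sample (239 to 375), and the second SARS2 transcript had a mean of 12.58 (6 to 19). No group had enough samples to be tested for outlying values.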

How the results depend on the processing

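No called synthetase changed direction under the alternatives, while medians near 0 moved to either side of it. The number of cytosolic synthetases called with miR-10a was 1 instead of 0 with DESeq2 and with each vector fitted alone, and that for the average effect was 1 instead of 3 with no filter on low counts. Among the mitochondrial synthetases TMM factors gave 1 call instead of 0 for the average effect (IARS2), and DESeq2 gave 0 instead of 1 between the uninduced cells. Leaving out 1 library at a time gave 0 to 1 cytosolic calls with miR-10a, 2 to 4 with miR-10b, 1 to 3 for the average effect, 0 to 0 for the difference and 5 to 9 between the uninduced cells, and for the mitochondrial synthetases 0 to 0, 0 to 1, 0 to 1, 0 to 0 and 0 to 2. LARS with miR-10b and for the average effect was called in all 19 and 18 alternative fits. Without replicate 2 of the miR-10b doxycycline group 3 cytosolic members were called for the average effect and 2 with miR-10b. Same-numbered samples correlated at -0.0319 to 0.0082 in their deviations, so no pairing by number was seen. Much of these deviations is counting noise, so the check cannot exclude a weak pairing. With a replicate block 3 cytosolic members were called with miR-10b, 3 for the average effect and 8 instead of 7 between the uninduced cells. The cause of these shifts was not tested. Low counts widen the intervals of most members with several transcripts and of the lower mitochondrial ones.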
